A study of Homo sapiens with 8 samples.

Results

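The Hippo and YAP genes described here are 8 rows of a count table of 80311 genes, picked by symbol with earlier results of these data known: the coactivators YAP1 and WWTR1, their DNA-binding partner TEAD1, the kinase LATS2, the scaffold AMOTL2, and the target genes CCN1, CCN2 and ANKRD1. All 8 passed the filter on low counts. Total RNA had been sequenced from U2OS, a human osteosarcoma line. The study asks how MePCE acts where R-loops meet broken DNA. The 4 groups, with 2 libraries each, were AsiSI siMePCE, AsiSI siNC, Flp-In siMePCE and Flp-In siNC. AsiSI stands for the line labelled U2OS AsiSI (in the growth protocol AiD-DiVA AsiSI-ER), which carries a restriction enzyme that 4-hydroxytamoxifen (4-OHT) brings into action, and Flp-In for U2OS-Flp-In-TREx. The siRNA siMePCE is directed against MEPCE, whose product caps the 7SK RNA, and siNC is the control. Cells were transfected at 0 h and again at 48 h and lysed at 96 h, and AsiSI cells had 300 nM 4-OHT for the last 4 h under both siRNAs. The labels state no 4-OHT for Flp-In, so line and 4-OHT cannot be told apart. Separate cultures are not named for the 2 libraries of a group, so all p-values below rest on library-to-library spread, which may be technical.

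In the Hippo pathway a kinase cascade ends in LATS1 and LATS2, which phosphorylate YAP and TAZ (the product of WWTR1) and keep them out of the nucleus. Unphosphorylated YAP and TAZ enter the nucleus, where they bind TEAD proteins, since they have no DNA-binding domain of their own, and switch on genes of growth and of the cell's matrix. CCN1, CCN2 and ANKRD1 are the usual readouts of that step, and LATS2 and AMOTL2 are both targets and inhibitors of YAP, which closes a feedback loop.

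The start regions of CCN2 and ANKRD1, the members with the largest knockdown effects, are shown first with AMOTL2, a target with a small one. Each is the stretch of 250 bases before a start site on the gene's own strand, from RefSeq on GRCh38.p14, which is not the build of the counts, and capitals mark the core word of TEAD binding, GGAATG, or its reverse complement CATTCC. The stretches are chr6:131951373-131951622 for CCN2, chr10:90921088-90921337 for ANKRD1 and chr3:134374448-134374697 for AMOTL2, all on the minus strand.
CCN2: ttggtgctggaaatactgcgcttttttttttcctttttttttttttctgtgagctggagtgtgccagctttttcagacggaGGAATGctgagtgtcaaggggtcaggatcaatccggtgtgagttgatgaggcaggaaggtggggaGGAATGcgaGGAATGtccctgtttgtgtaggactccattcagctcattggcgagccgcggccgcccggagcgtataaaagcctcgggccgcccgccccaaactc
ANKRD1: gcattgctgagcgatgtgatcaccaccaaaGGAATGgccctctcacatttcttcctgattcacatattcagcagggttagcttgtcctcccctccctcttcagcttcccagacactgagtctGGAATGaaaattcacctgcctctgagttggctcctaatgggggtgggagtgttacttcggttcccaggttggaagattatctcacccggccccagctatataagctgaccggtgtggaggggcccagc
AMOTL2: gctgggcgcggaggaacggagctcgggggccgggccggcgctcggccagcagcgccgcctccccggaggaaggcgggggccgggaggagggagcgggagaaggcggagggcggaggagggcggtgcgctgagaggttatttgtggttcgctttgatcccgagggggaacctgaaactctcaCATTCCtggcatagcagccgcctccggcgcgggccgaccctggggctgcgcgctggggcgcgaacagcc
CCN2 held 3 copies of the word, which began 169, 104 and 95 bases before the start, and the last pair lay close together. ANKRD1 held 2, at 220 and 128 bases before the start, together with 1 match to the AP-1 word TGANTCA at 195 bases. AMOTL2 held 1, on the opposite strand at 69 bases before one of its 2 listed starts, and none at the other. Across all 35116 RefSeq promoters, counted from 250 bases before to 50 after the start on both strands, 14% held at least 1 copy of GGAATG, 1.37% at least 2 and 0.128% at least 3, and 7.71% held the AP-1 word. YAP1 had 1 copy at 162 bases before its start, LATS2 had 1 at position 10 after it, and neither start of WWTR1 had any in this window. The table matched 6 of the 8 members, and CCN1 and TEAD1 were not among them. These are matches of letters and carry no measurement of binding. The 3 regions shown were picked by knockdown effect, so their numbers of words cannot be read against the size of that effect.

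The libraries held 41431776 to 53695626 counts. MEPCE had 3.65 and 2.30 CPM (counts scaled to library size by the TMM method) in AsiSI siMePCE, against 29.3 and 29.3 in AsiSI siNC, and 5.35 and 4.84 CPM in Flp-In siMePCE, against 39.9 and 40.1 in Flp-In siNC. The targeted gene was thus lower in every siMePCE library. Of 6 mesenchymal and osteoblast markers, 5 were at 23.5 CPM or more in every library (VIM, RUNX2, SPARC, COL1A1 and CDH2) and COL1A2 stayed at or below 0.811 CPM. Their summed level was 1550 to 1630 CPM in AsiSI siMePCE, against 1820 to 2060 in AsiSI siNC, and 989 to 1140 in Flp-In siMePCE, against 1450 to 1500 in Flp-In siNC. Markers of other cell types were low, with KRT19 and CD3E at or near 0, and their sums were higher under siMePCE in each line. For 3 epithelial markers the sum was 8.51 to 9.39 CPM in AsiSI siMePCE, against 4.6 to 5.63 in AsiSI siNC, and 10.8 to 10.9 in Flp-In siMePCE, against 8.57 to 9.6 in Flp-In siNC. For 3 haematopoietic markers it was 7.97 to 9.89 CPM in AsiSI siMePCE, against 6.08 to 7.83 in AsiSI siNC, and 5.21 to 6.29 in Flp-In siMePCE, against 2.77 to 3.16 in Flp-In siNC. The endothelial marker CDH5 had 1.67 to 1.89 CPM in AsiSI siMePCE, against 0.665 to 0.708 in AsiSI siNC, and 0.703 to 0.77 in Flp-In siMePCE, against 0.466 to 0.526 in Flp-In siNC. The part of these markers in the results was not tested. Mitochondrial genes took 8.24% to 10.6% of counts under siMePCE, against 5.23% to 5.91% under siNC. With mitochondrial, RN7SK, RN7SL and ribosomal RNA genes left out before scaling, all 40 member values over the 5 comparisons kept their direction and call, and none moved by more than 0.01 on the log2 scale. All values here are relative to the other genes of a library. A change in total RNA was not tested, and this run cannot show one.

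After MEPCE knockdown the target genes CCN2 and ANKRD1 were 2.29-fold to 2.93-fold higher in both lines, CCN1 and LATS2 were higher by a smaller step, and the coactivator WWTR1 and its partner TEAD1 were lower. YAP1 was called lower in AsiSI and AMOTL2 was called higher in Flp-In. In edgeR's quasi-likelihood test with Benjamini-Hochberg adjustment over 43321 genes, called at an adjusted p under 0.05, 7 of 8 members were called in AsiSI, 4 higher and 3 lower. Of all genes tested in AsiSI 38.1% were called, 16.8% higher and 21.3% lower. In Flp-In 7 of 8 members were called, 5 higher and 2 lower, where 40.8% of all genes were called, 18.1% higher and 22.7% lower. All genes here include noncoding rows, and shares for protein-coding genes by length are given further below. The members' median log2 fold change was 0.23 in AsiSI, where that of all genes was 0.04 and that of protein-coding genes -0.14. In Flp-In it was 0.39, where the others were 0.03 and -0.10. The libraries of the groups compared did not overlap for 7 members in AsiSI and for all 8 in Flp-In; among all genes that was so for 33.5% above and 33.3% below in AsiSI, and for 36.3% above and 36.6% below in Flp-In.

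**Figure D1:**
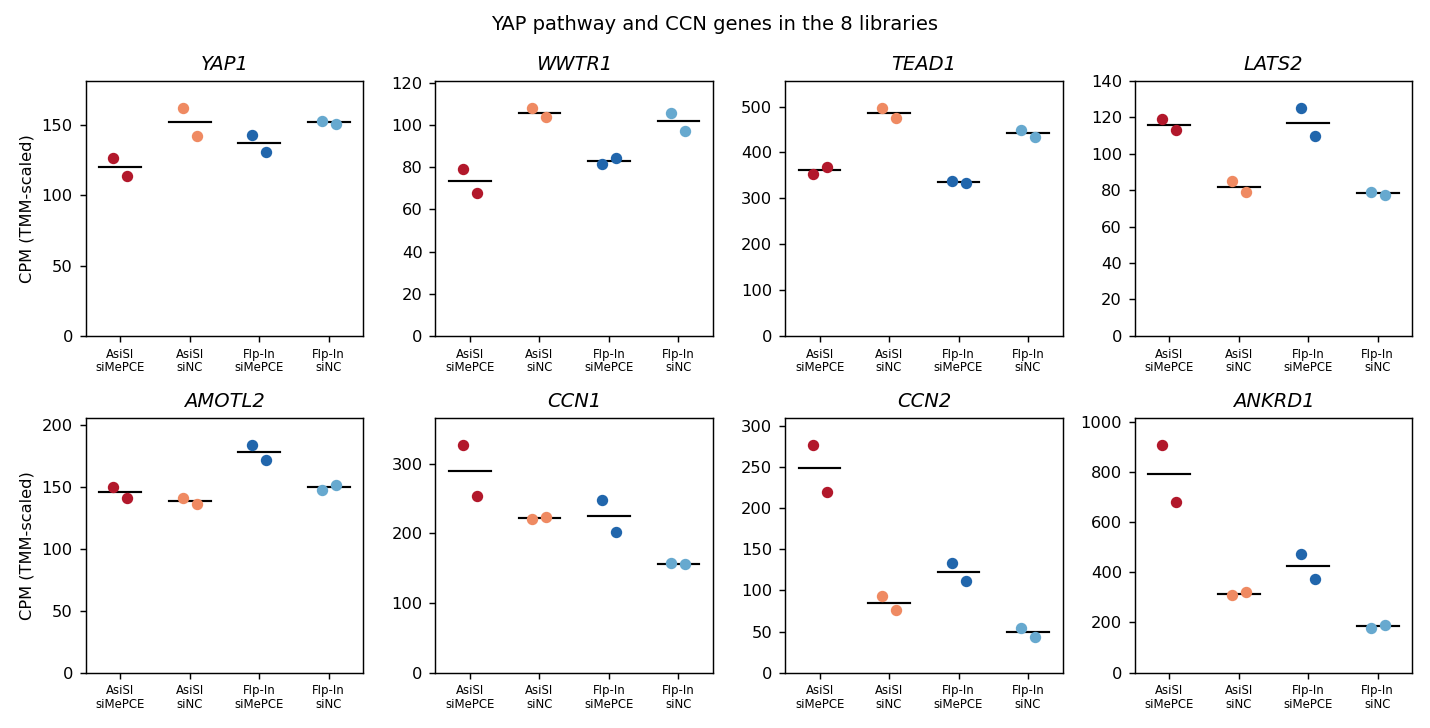
TMM-scaled CPM of each of the 8 genes (vertical axes from 0, on a scale of their own) in the 4 groups, with a point for each library and a line for the group mean. CCN2 and ANKRD1 stood highest in AsiSI siMePCE and lowest in Flp-In siNC, whereas YAP1, WWTR1 and TEAD1 were lower under siMePCE than under siNC in each line.

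YAP1 (ENSG00000137693, chromosome 11, 101981178 to 102104155, plus strand, hg19), the coactivator that Hippo signalling holds in check, had 127 and 114 CPM in AsiSI siMePCE, against 162 and 142 in AsiSI siNC, and 143 and 131 CPM in Flp-In siMePCE, against 153 and 151 in Flp-In siNC. Both siMePCE libraries lay below both siNC libraries in each line, by a narrow gap. YAP1 fell 1.26-fold in AsiSI (log2 change -0.34, SE 0.0900, edgeR adjusted p = 0.00525), while in Flp-In its log2 fold change of -0.15 was not called (95% interval -0.34 to 0.04, edgeR adjusted p = 0.193). Of its 4 groups, AsiSI siMePCE was lowest and clear of the next, and the other three overlapped with their neighbours in the order of levels. In bulk RNA, fewer cells with a transcript and less of it per cell cannot be told apart, here and in all results below. The AsiSI call was lost without AsiSI siMePCE replicate 2 or AsiSI siNC replicate 1 and at a fold threshold of 1.2 (edgeR adjusted p = 0.185). A stricter filter moved the AsiSI value to -0.20, where it moved all shared genes by a median of 0.13 on the log2 scale.

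WWTR1 (ENSG00000018408, chromosome 3, 149235022 to 149454501, minus strand), which encodes TAZ, had 79.0 and 67.8 CPM in AsiSI siMePCE, against 108 and 104 in AsiSI siNC. In Flp-In it had 81.5 and 84.4 CPM under siMePCE, against 106 and 97.3 under siNC. All 4 siMePCE libraries were below all 4 siNC libraries. WWTR1 fell 1.45-fold in AsiSI (log2 change -0.54, SE 0.0926, edgeR adjusted p = 9.15e-05) and 1.23-fold in Flp-In (-0.29, SE 0.0924, adjusted p = 0.0149). The Flp-In call was lost without replicate 1 of Flp-In siMePCE (edgeR adjusted p = 0.0756) or of Flp-In siNC (0.148), and at a fold threshold of 1.2 (0.303).

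TEAD1 (ENSG00000187079, chromosome 11, 12695968 to 12966284, plus strand), the factor that carries YAP and TAZ to DNA, had 353 and 369 CPM in AsiSI siMePCE, against 496 and 476 in AsiSI siNC, and 338 and 333 CPM in Flp-In siMePCE, against 449 and 434 in Flp-In siNC. Its groups were separate at each step of the order, with both siNC groups on top. TEAD1 fell 1.35-fold in AsiSI (log2 change -0.43, SE 0.0724, edgeR adjusted p = 6.88e-05) and 1.32-fold in Flp-In (-0.40, SE 0.0724, adjusted p = 0.000158). These calls held under every alternative run.

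LATS2 (ENSG00000150457, chromosome 13, 21547175 to 21635725, minus strand), the kinase that phosphorylates YAP and TAZ, had 119 and 113 CPM in AsiSI siMePCE, against 85.1 and 78.9 in AsiSI siNC. In Flp-In it had 125 and 110 CPM under siMePCE, against 79.3 and 77.3 under siNC. LATS2 rose 1.42-fold in AsiSI (log2 change 0.50, SE 0.0898, edgeR adjusted p = 0.000128) and 1.5-fold in Flp-In (0.58, SE 0.0900, adjusted p = 2.36e-05), under every alternative run. Its levels fell into a siMePCE pair of groups and a siNC pair, and the lines overlapped within each pair.

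AMOTL2 (ENSG00000114019, chromosome 3, 134074189 to 134094321, minus strand), a scaffold of cell junctions that binds YAP in the cytoplasm, had 150 and 141 CPM in AsiSI siMePCE, against 141 and 136 in AsiSI siNC, and 184 and 172 CPM in Flp-In siMePCE, against 148 and 152 in Flp-In siNC. The AsiSI libraries overlapped (log2 fold change 0.07, 95% interval -0.10 to 0.24, edgeR adjusted p = 0.52), and the Flp-In siMePCE libraries stood above all others. The Flp-In rise was 1.19-fold (0.25, SE 0.0812, edgeR adjusted p = 0.0176). It was lost without replicate 1 of Flp-In siMePCE and without replicate 1 or 2 of Flp-In siNC. It was also lost with no count filter (edgeR adjusted p = 0.0642) and at a fold threshold of 1.2 (0.462). In AsiSI a stricter filter made AMOTL2 a call (log2 fold change 0.21, edgeR adjusted p = 0.0149). That filter moved all shared genes by a median of 0.13 in AsiSI on the log2 scale.

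Among the targets, CCN2 (ENSG00000118523, chromosome 6, 132269316 to 132272512, minus strand) encodes connective tissue growth factor, a secreted matrix protein. It had 277 and 220 CPM in AsiSI siMePCE, against 93.6 and 76.4 in AsiSI siNC, and 133 and 112 CPM in Flp-In siMePCE, against 54.1 and 43.6 in Flp-In siNC. The groups were separate at every step, from AsiSI siMePCE over Flp-In siMePCE and AsiSI siNC down to Flp-In siNC. CCN2 rose 2.93-fold in AsiSI (log2 change 1.55, SE 0.125, edgeR adjusted p = 4.33e-09) and 2.51-fold in Flp-In (1.33, SE 0.126, adjusted p = 4.23e-08). Among the log2 fold changes of all genes tested it stood at percentile 93 in AsiSI and 89.6 in Flp-In.

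ANKRD1 (ENSG00000148677, chromosome 10, 92671853 to 92680844, minus strand) encodes an ankyrin-repeat protein of nucleus and sarcomere best known from heart muscle. It had 907 and 679 CPM in AsiSI siMePCE, against 308 and 321 in AsiSI siNC, and 471 and 374 CPM in Flp-In siMePCE, against 179 and 191 in Flp-In siNC. Its groups stood in the same order as those of CCN2, again with no overlap. ANKRD1 rose 2.52-fold in AsiSI (log2 change 1.34, SE 0.112, edgeR adjusted p = 7.70e-09) and 2.29-fold in Flp-In (1.19, SE 0.112, adjusted p = 3.62e-08). For CCN2 and ANKRD1 both calls held under every alternative run.

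CCN1 (ENSG00000142871, chromosome 1, 86046444 to 86050272, plus strand), the paralog of CCN2 also known as CYR61, had 327 and 254 CPM in AsiSI siMePCE, against 220 and 224 in AsiSI siNC, and 248 and 202 CPM in Flp-In siMePCE, against 157 and 156 in Flp-In siNC. The siMePCE libraries of a line differed more from each other than its siNC libraries did, and both lay above the siNC libraries of that line. CCN1 rose 1.31-fold in AsiSI (log2 change 0.39, SE 0.105, edgeR adjusted p = 0.00569) and 1.44-fold in Flp-In (0.53, SE 0.106, adjusted p = 0.000425). Without AsiSI siMePCE replicate 1 the AsiSI value was 0.18 and no longer called (edgeR adjusted p = 0.227), nor was it at a fold threshold of 1.2 (0.111), and without Flp-In siMePCE replicate 1 the Flp-In value was 0.35, still called.

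**Figure D2:**
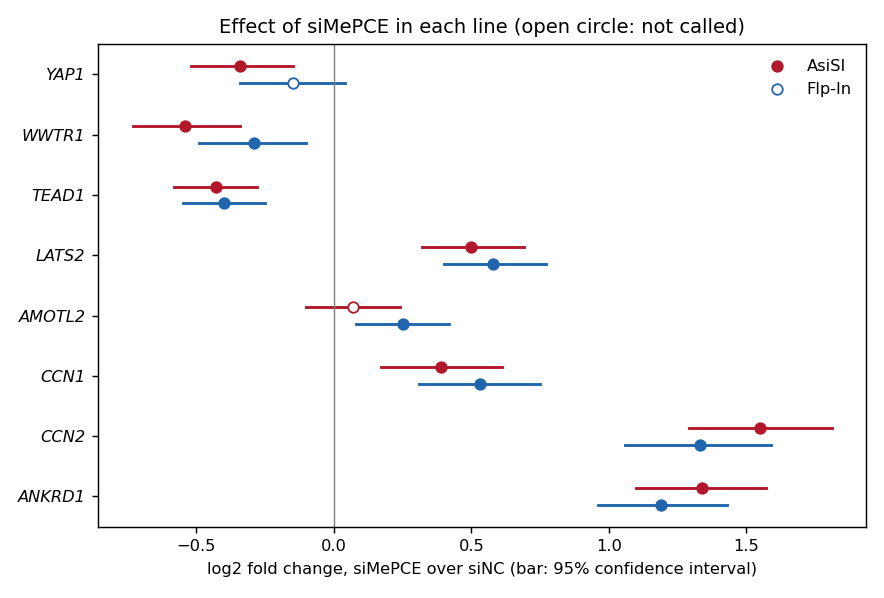
Log2 fold change of siMePCE over siNC for each gene, with AsiSI above Flp-In; bars are 95% confidence intervals from the edgeR fit and open circles were not called. CCN2 and ANKRD1 lay above 1 in both lines, WWTR1 and TEAD1 lay below 0 with their whole intervals, and the intervals of both lines overlapped for every gene.

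Whether the knockdown effect differed between the lines was tested as the difference, AsiSI minus Flp-In. None of the 8 members was called in edgeR, none had an unadjusted p under 0.05 (the smallest was 0.0779, for WWTR1), and DESeq2 called none, where edgeR called 4.17% of all genes, 2.51% higher and 1.66% lower. The difference in log2 fold change was 0.22 for CCN2 (95% interval -0.14 to 0.59) and 0.14 for ANKRD1 (-0.18 to 0.47). For CCN1 it was -0.14 (-0.45 to 0.17), for WWTR1 -0.24 (-0.51 to 0.03) and for YAP1 -0.19 (-0.45 to 0.08). AMOTL2 had -0.18 (-0.42 to 0.06), LATS2 -0.08 (-0.34 to 0.18) and TEAD1 -0.03 (-0.25 to 0.18). The interval of CCN2 still reaches 0.59, and the calls of YAP1 and AMOTL2 in a single line do not show a difference between lines.

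The levels themselves differed between the lines for the secreted and nuclear targets. Under siMePCE, CCN2 was 2.03-fold higher in AsiSI than in Flp-In (log2 change 1.02, SE 0.123, edgeR adjusted p = 1.55e-06), ANKRD1 1.88-fold (0.91, SE 0.111, adjusted p = 1.85e-06) and CCN1 1.29-fold (0.37, SE 0.105, adjusted p = 0.0102). AMOTL2 was 1.22-fold lower (-0.29, SE 0.0812, adjusted p = 0.00908). These 4 of 8 members were called where 31.5% of all genes were, 15.6% higher and 15.9% lower. Under siNC, CCN2 was 1.74-fold higher in AsiSI than in Flp-In (log2 change 0.80, SE 0.125, edgeR adjusted p = 4.41e-05), ANKRD1 1.70-fold (0.77, SE 0.111, adjusted p = 1.77e-05) and CCN1 1.42-fold (0.50, SE 0.106, adjusted p = 0.000896). No other member was called under siNC, so 3 of 8 were called where 29.5% of all genes were, 14.4% higher and 15.1% lower. Under siNC the log2 differences of YAP1, WWTR1, TEAD1 and LATS2 ran from 0.00 to 0.14. These comparisons use the same libraries as the knockdown contrasts, and line and 4-OHT differ together in them. Under siMePCE the CCN1 call was lost without AsiSI siMePCE replicate 1 (log2 0.17, edgeR adjusted p = 0.287) or Flp-In siMePCE replicate 2 (0.22, 0.197), that of AMOTL2 without AsiSI siMePCE replicate 2 (0.0937) or Flp-In siMePCE replicate 1 (0.106), and both at a fold threshold of 1.2.

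Per kilobase of listed gene length, the 3 targets were the most abundant members in every group. In AsiSI siMePCE ANKRD1 averaged 88.2 ± 17.9, CCN2 77.8 ± 12.7 and CCN1 75.9 ± 13.5 CPM per kb (SD, n = 2), which overlapped. In Flp-In siNC CCN1 led with 40.8 ± 0.167 CPM per kb, ahead of ANKRD1 with 20.5 ± 0.938 and CCN2 with 15.3 ± 2.33 (SD, n = 2). AMOTL2 followed with group means of 6.89 to 8.84 CPM per kb, and TEAD1, YAP1, LATS2 and WWTR1 lay between 0.334 and 1.80. The listed length counts introns, so this is a read density over the whole gene: exons in GENCODE 29 made up 76.7% of CCN1, 73.1% of CCN2, 30.5% of AMOTL2 and 21.6% of ANKRD1, and 3.80% to 6.30% of the other four.

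Counts covered introns as well as exons, and short and long genes moved differently as classes. Protein-coding genes under 5 kb had a median log2 fold change of -0.40 in AsiSI and -0.51 in Flp-In (n = 1400), and those over 200 kb had 0.14 and 0.08 (n = 1503). Of those under 5 kb, 8.93% were called higher and 37.3% lower in AsiSI, and 8.79% and 40.9% in Flp-In. Of those over 200 kb, 38.1% were called higher and 22.0% lower in AsiSI, and 36.4% and 28.4% in Flp-In. CCN2, at 3.20 kb, stood at the 95.6th percentile of its length class in AsiSI and the 95.8th in Flp-In. ANKRD1, at 8.99 kb, stood at the 94.3rd and 94.5th, and CCN1, at 3.83 kb, at the 82.9th and 87.3rd. Among the long genes WWTR1, at 219.5 kb, stood at the 11.4th percentile in AsiSI and the 26.8th in Flp-In, and TEAD1, at 270.3 kb, at the 15.3rd and 22.1st.

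**Figure D3:**
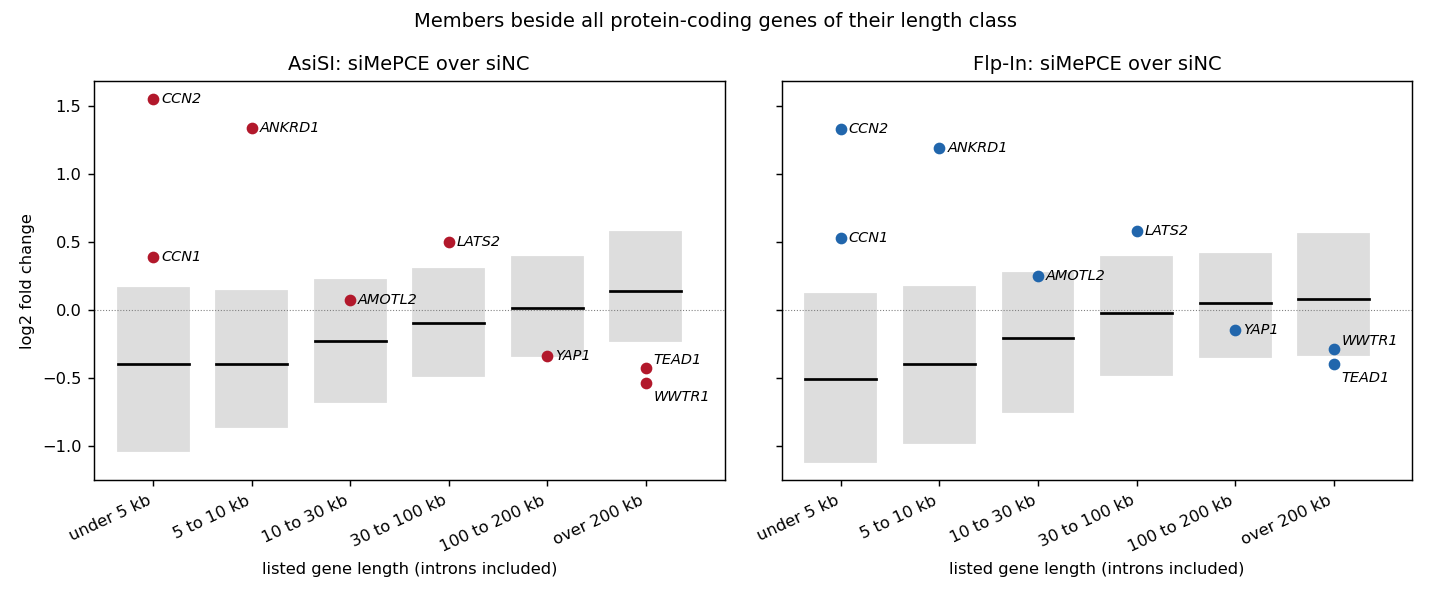
Log2 fold change of siMePCE over siNC by class of listed gene length, in AsiSI (left) and Flp-In (right); grey boxes run from the lower to the upper quartile of all protein-coding genes, with the median as a line, and points are the 8 members. CCN2, CCN1, ANKRD1 and LATS2 lay above the box of their class and TEAD1 below it in both lines, while WWTR1 lay below it in AsiSI.

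Rows that overlap a member bear on what its counts hold. Where rows overlap, on either strand, each seems to have received all of the reads in common, so sense and antisense cannot be told apart. CCN2 lies wholly inside LINC01013, a long noncoding gene of the opposite strand, and its counts made up 92.2% to 96.0% of that row. What was left of LINC01013 after CCN2 was 630 and 801 counts in AsiSI siMePCE, against 189 and 200 in AsiSI siNC, and 307 and 361 in Flp-In siMePCE, against 123 and 153 in Flp-In siNC. ANKRD1 had no overlapping row, and those of the other members held at most 27.6% of the member's count.

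Inside YAP1 an antisense row, ENSG00000254422, covers 1072 bases that all lie in YAP1 exons in GENCODE 29. That row is 0.872% of the gene's length, and it held 12.9% and 14.3% of YAP1 counts in AsiSI siMePCE, against 19.4% and 20.8% in AsiSI siNC. In Flp-In it held 13.5% and 11.6% under siMePCE, against 20.1% and 18.2% under siNC, and no siMePCE library reached a siNC library. The row fell by more than the gene as a whole did, with log2 fold changes of -0.90 in AsiSI (SE 0.127, edgeR adjusted p = 8.23e-06) and -0.75 in Flp-In (SE 0.126, adjusted p = 6.28e-05). With overlapping rows subtracted, an alternative chosen after seeing the data, YAP1 had -0.22 in AsiSI and was not called (edgeR adjusted p = 0.0641). Since strands cannot be told apart, that subtraction may also have removed exonic reads of YAP1 itself. It therefore cannot tell whether the fall belongs to YAP1 or to the antisense row.

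WWTR1 had a like row. WWTR1-AS1 shares 4345 bases with WWTR1 in GENCODE 29, 1014 of them in WWTR1 exons, and held 1.80% and 2.36% of WWTR1 counts in AsiSI siMePCE, against 4.46% and 4.46% in AsiSI siNC. In Flp-In it held 3.70% and 2.48% under siMePCE, against 4.38% and 4.57% under siNC. Its log2 fold change was -1.65 in AsiSI (SE 0.232, edgeR adjusted p = 7.95e-06) and -0.83 in Flp-In (SE 0.221, adjusted p = 0.00478). Both rows, exonic in whole or in part, were thus lower by more than the genes around them; the difference in size between a row and its gene was not tested.

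The rest of the pathway was read from lists of known members. For every list below, the counts stand beside those of all genes tested. Of these, 16.8% were called higher and 21.3% lower in AsiSI, and 18.1% and 22.7% in Flp-In. All genes had a median log2 fold change of 0.04 in AsiSI and 0.03 in Flp-In, and protein-coding genes -0.14 and -0.10. Of 28 core kinases and upstream regulators, 4 were called higher and 16 lower in AsiSI (median log2 fold change -0.41), and 4 higher and 13 lower in Flp-In (median -0.27). At a fold threshold of 1.2 AsiSI had 0 higher and 12 lower and Flp-In 2 and 9, and without Flp-In siMePCE replicate 2 Flp-In also had 2 and 9. Under a filter of CPM of at least 1 in at least 4 libraries AsiSI had 7 higher and 13 lower, and without AsiSI siMePCE replicate 1 or AsiSI siNC replicate 2 it had 2 higher. NF2, which encodes Merlin and starts the cascade at the membrane, averaged 74.7 ± 1.96 CPM in AsiSI siMePCE and 231 ± 16.2 in AsiSI siNC, and 77.5 ± 5.86 CPM in Flp-In siMePCE and 176 ± 13.9 in Flp-In siNC (SD, n = 2). Its log2 fold change was -1.63 in AsiSI and -1.18 in Flp-In. The MAP4 kinases MAP4K2 and MINK1, which phosphorylate LATS beside the MST kinases, had -1.58 and -1.79 in AsiSI, and -1.63 and -1.35 in Flp-In. TAOK1, a kinase upstream of MST, had -0.61 and -0.69, and PTPN14, a phosphatase that binds YAP and is also a YAP target, -0.64 and -0.56. Higher in both lines were STK3, LATS1 and SAV1, which encode the kinases MST2 and LATS1 and the scaffold Salvador: STK3 had 0.40 in AsiSI and 0.27 in Flp-In, LATS1 0.32 and 0.54, and SAV1 0.34 and 0.75. The remaining higher calls were FRMD6 in AsiSI (0.39) and MAP4K3 in Flp-In (0.24). Without AsiSI siNC replicate 2 the AsiSI values of STK3 and SAV1 were 0.24 and 0.21. Without AsiSI siMePCE replicate 1 those of SAV1 and LATS1 were 0.29 and 0.19. SAV1 overlaps ATL1, whose row held 0.524 times its counts, and FRMD6 overlaps FRMD6-AS2, whose row held 0.521 times its counts. At the fold threshold of 1.2 the AsiSI calls of STK3, LATS1, SAV1 and FRMD6 were lost, as were the Flp-In calls of STK3 and MAP4K3, which also did not hold with any 1 of the 4 Flp-In libraries left out.

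STRIPAK is the phosphatase complex that takes phosphate off the MST kinases. Of its 12 subunit genes, 2 were called higher and 5 lower in AsiSI (median log2 fold change -0.10), and 4 higher and 4 lower in Flp-In (median -0.07). Both medians lay near those of all protein-coding genes, -0.14 and -0.10. Under the filter of CPM of at least 1 AsiSI had 5 higher and 4 lower, and at a fold threshold of 1.2 each line had 4 calls in all. The Flp-In total of 8 was 5 without Flp-In siMePCE replicate 2 or Flp-In siNC replicate 1, and 4 without Flp-In siNC replicate 2. The scaffold STRN had -0.57 in AsiSI and -0.50 in Flp-In, and STRIP2 -0.88 and -0.46. STRN3 had 0.49 and 0.25, the catalytic subunit PPP2CA 0.36 and 0.68, and PPP2CB, called in Flp-In, 0.20 and 0.54. Overlapping rows held 0.874 times the counts of STRN3 and 1.65 times those of PPP2CA.

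Among the other TEAD and VGLL genes, whose products carry or compete with YAP on DNA, 6 of 7 were tested and VGLL1 had at most 16 counts. In AsiSI 2 were called higher and 3 lower, and in Flp-In 3 higher and 2 lower; the AsiSI total of 5 was 3 without AsiSI siMePCE replicate 1 or AsiSI siNC replicate 2 or with only the 4 libraries compared, and 2 at a fold threshold of 1.2. VGLL3, a TEAD cofactor, had 235 and 222 CPM in AsiSI siMePCE, against 103 and 78.3 in AsiSI siNC, and 50.4 and 45.1 CPM in Flp-In siMePCE, against 31.6 and 32.8 in Flp-In siNC. It rose by 1.34 on the log2 scale in AsiSI and 0.57 in Flp-In. TEAD4 was lower in AsiSI (-0.31) and higher in Flp-In (0.24). Its AsiSI call was lost at a fold threshold of 1.2, and its Flp-In call was not checked under the alternatives. TEAD2 was lower in both (-0.46 and -0.82), VGLL4 higher in both (0.25 and 0.68), and TEAD3 had -0.21 in AsiSI, not called, and -0.71 in Flp-In. The AsiSI calls of TEAD2 and VGLL4 did not hold without AsiSI siMePCE replicate 1 (edgeR adjusted p = 0.0938 and 0.125), and each was lost in more alternatives. VGLL4 overlaps ATG7, whose row had 1.95 times its counts, and TEAD2 overlaps CD37, whose row had 0.564 times its counts.

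Other targets were called in both directions. Of 16 further conserved YAP and TAZ targets tested, 4 were called higher and 8 lower in AsiSI (median log2 fold change -0.37), and 4 higher and 9 lower in Flp-In (median -0.40); IGFBP3, the 17th, had at most 6 counts. Under the filter of CPM of at least 1 AsiSI had 6 higher and 7 lower, and at a fold threshold of 1.2 Flp-In had 1 higher and 7 lower. AXL, a receptor tyrosine kinase, averaged 184 ± 0.0204 CPM in AsiSI siMePCE and 419 ± 50.1 in AsiSI siNC, and 124 ± 8.38 CPM in Flp-In siMePCE and 285 ± 11 in Flp-In siNC (SD, n = 2), a log2 fold change of -1.19 in each line. TGFB2, a ligand of the TGF-beta receptors, fell by 1.34 in AsiSI and 0.92 in Flp-In, and MYOF, a membrane repair protein, by 0.69 and 0.46. F3, which encodes tissue factor, fell by 0.57 in AsiSI and 1.97 in Flp-In. Called higher in both lines were NT5E, at a mean of only 4 CPM (0.70 in AsiSI, 0.62 in Flp-In), and the kinase gene NUAK2 (0.97 and 1.34). Further higher calls in AsiSI were CCDC80 (0.45) and RBMS3 (0.25), and in Flp-In ASAP1 (0.31) and GADD45A (0.46). The Flp-In calls of NT5E and GADD45A were lost without replicate 1 of Flp-In siMePCE (edgeR adjusted p = 0.169 and 0.214) and in further alternatives, the AsiSI call of NT5E without AsiSI siNC replicate 1 (0.0705), and that of CCDC80 without AsiSI siNC replicate 2 (0.0591). RBMS3, an RNA-binding protein gene, was called lower in Flp-In (-0.77), and an overlapping row held 0.765 times its counts. The AsiSI call of RBMS3 (edgeR adjusted p = 0.0295) was not checked under the alternatives.

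Genes of the actin cytoskeleton and its factor SRF, which share several targets with YAP, were called lower or not called. Of 15, edgeR called 9 lower in AsiSI (median log2 fold change -0.39) and 11 in Flp-In (median -0.62), and the other 6 and 4 were not called. DESeq2 also called 9 and 11 lower and none higher, and none was higher at an unadjusted edgeR p under 0.05. In AsiSI 1 was called higher and 7 lower under the filter of CPM of at least 1, and 1 higher and 8 lower without AsiSI siNC replicate 2, while Flp-In had no higher call under any alternative run. FLNA, the crosslinker filamin A, had 164 and 165 CPM in AsiSI siMePCE, against 467 and 490 in AsiSI siNC, and 282 and 233 CPM in Flp-In siMePCE, against 753 and 768 in Flp-In siNC. Its log2 fold change was -1.54 in AsiSI and -1.56 in Flp-In. The tropomyosin gene TPM1 had -1.09 and -1.25, the actin gene ACTG1 -0.88 and -0.79, FHL2, a LIM-domain cofactor, -1.10 and -0.62, and MRTFB, a coactivator of SRF, -0.70 and -1.05. Overlapping rows held 0.612 times the counts of TPM1 and 0.518 times those of MRTFB.

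Of the other CCN family members, CCN3, whose product counteracts CCN2 in several settings, had 10.8 and 11.3 CPM in AsiSI siMePCE, against 46.0 and 46.0 in AsiSI siNC, and 8.80 and 6.37 CPM in Flp-In siMePCE, against 38.8 and 34.7 in Flp-In siNC. It fell by 2.06 on the log2 scale in AsiSI (SE 0.135, edgeR adjusted p = 2.68e-10) and by 2.28 in Flp-In (SE 0.138, adjusted p = 8.60e-11); an overlapping row held 0.792 times its counts. CCN4 was at 2.40 to 4.28 CPM, and CCN5 and CCN6 had 6 to 36 counts per library, and none of these was called in either line. CCN5 overlaps KCNK15-AS1, whose row held 14.5 times its counts, so the CCN5 values cannot be assigned to CCN5 alone. CCN6 had log2 fold changes of 0.46 in AsiSI (95% interval -0.59 to 1.5) and 0.43 in Flp-In (-0.62 to 1.48), and CCN5 had 0.86 in AsiSI (-0.58 to 2.3). In Flp-In CCN4 (log2 fold change -0.48) and CCN5 (-1.34) had unadjusted edgeR p of 0.0382 and 0.0336, and DESeq2 called neither. With only the 4 Flp-In libraries compared, 2 genes of this CCN list were called lower there, and CCN3 was 1 of them. Of 8 integrin genes for receptors of CCN proteins, 2 were called higher and 1 lower in AsiSI, and 3 higher and 2 lower in Flp-In. The AsiSI share is 3 of 8, where 38.1% of all genes were called, and the Flp-In share is 5 of 8, where 40.8% were. The AsiSI total was 5, 4 of them higher, under the filter of CPM of at least 1, and 2 at a fold threshold of 1.2 or without AsiSI siNC replicate 1. The Flp-In total of 5 was 3 at that threshold or without Flp-In siNC replicate 2. ITGA6 was lower in both lines (-0.67 and -0.42), and ITGAM, a leukocyte integrin, was higher in both (1.36 and 0.91) at a mean of 2.40 CPM, with the Flp-In call lost without Flp-In siNC replicate 2 (edgeR adjusted p = 0.0749). ITGA5 had 0.44 in AsiSI, which was not called without AsiSI siNC replicate 1 (edgeR adjusted p = 0.206). Called in Flp-In and not in AsiSI were ITGB5 (0.44), ITGB3 (0.60) and ITGB1 (-0.28), and the ITGB3 call was lost without Flp-In siMePCE replicate 2 (0.13) or Flp-In siNC replicate 2 (0.12). Overlapping rows held 0.900 times the counts of ITGA6, 1.18 times those of ITGA5 and 7.98 times those of ITGB3.

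**Figure D4:**
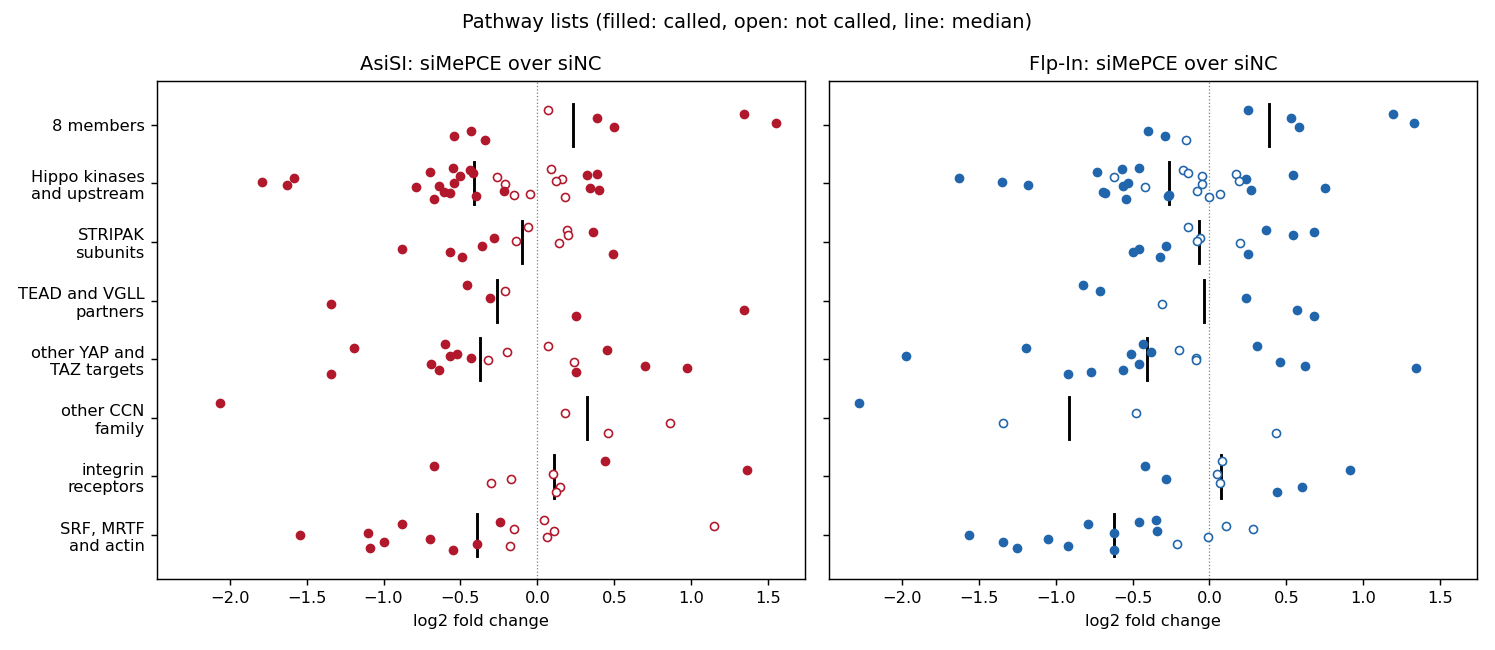
Log2 fold change of siMePCE over siNC for the 8 members and the tested genes of 7 pathway lists, in AsiSI (left) and Flp-In (right); filled points were called, open points were not, and black lines are medians. CCN2 and ANKRD1 lay above 1, whereas most called genes among the Hippo regulators, the other YAP and TAZ targets and the actin genes lay below 0 in both lines.

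The genes that followed each member most closely were found by Pearson's r on log2 CPM over the 8 libraries, which share 4 groups. The search took in about 13485 genes with a symbol, a mean CPM of at least 5 and no overlap in coordinates with the member. The nearest to CCN2 were VLDLR-AS1 (r = 0.996), BHLHE40-AS1 (0.993) and CHMP3-AS1 (0.993). Overlapping rows held 0.557 times the counts of VLDLR-AS1, 9.05 times those of BHLHE40-AS1 and 3.28 times those of CHMP3-AS1. ANKRD1 was closest to HSPA5 (0.991), VLDLR-AS1 (0.991) and PPT2 (0.989), and CCN1 to NKIRAS2 (0.984), SVIL (0.983) and RPL35A (0.981). LATS2 was followed by SYF2 (0.994), SMNDC1 (0.994) and PHF3 (0.993), and AMOTL2 by SBNO1 (0.992), NOL11 (0.989) and GTF2H1 (0.988). For TEAD1 these were MYO9A (0.997), TMX4 (0.996) and APLP2 (0.995), for WWTR1 COQ2 (0.995), TMEM39B (0.990) and C18orf54 (0.987), and for YAP1 STK17B (0.986), IMMT (0.984) and HNRNPR (0.983). HSPA5, the chaperone BiP of the endoplasmic reticulum, had log2 fold changes of 0.72 in AsiSI and 0.58 in Flp-In. Overlapping rows held 1.96 times the counts of NKIRAS2, 1.09 times those of SVIL and 1.16 times those of RPL35A. They held 2.04 times the counts of PPT2 and 1.09 times those of NOL11. Since overlapping rows seem to share reads, these matches cannot be assigned to the named gene alone.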

How the data were processed

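Per the labels' protocols, ribosomal RNA was removed and libraries were made with a directional kit. Trim Galore, FastQC, STAR, SAMtools, featureCounts and hg19 are named in the submitters' processing notes, with no version numbers. What the authors deposited are raw counts of 80311 genes in 8 columns, all used. In every row the listed length equals the span from start to end, so introns were counted. In 6889 of 6889 opposite-strand and 3520 of 3520 same-strand nested pairs (mean count at least 20) no inner row exceeded its host; the strand and overlap settings are not given in the sources used here.

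Symbols were matched by Ensembl identifier (50.8% of rows, 85.2% of counts). edgeR 4.0.16 in R 4.3.3 kept 43321 genes (filterByExpr), scaled by TMM and fitted 4 group means with the quasi-likelihood test. DESeq2 1.42.0 was an alternative. The common biological coefficient of variation was 0.121, and replicates differed beyond sampling noise (chi-square per degree of freedom 4.19 to 10). The procedure was also run on simulated data in which far fewer genes changed than were called here. That run therefore cannot vouch for the calls in these data.

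Members and lists were chosen with earlier results of these data known. Named were the members, up to 4 called genes per list and knockdown contrast by adjusted p (mean CPM of at least 5), all CCN genes, and 3 most-alike genes per member. STK3, SAV1, LATS1, FRMD6, MAP4K3, NT5E, NUAK2, CCDC80, ASAP1, GADD45A and ITGAM were chosen after their values were seen. Some marker genes are not reported here.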

Additional observations from a re-analysis of the deposited data

Results flagged for a closer look

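In edgeR's test of the difference of log2 fold changes, AsiSI minus Flp-In, 5 of 88 genes of the pathway lists were called (5.68%), where 4.17% of all genes were. RBMS3 differed by 1.01 (SE 0.122, edgeR adjusted p = 7.24e-05), being higher after siMePCE in AsiSI (0.25) and lower in Flp-In (-0.77). Its AsiSI rise was only 1.19-fold (edgeR adjusted p = 0.0295), and that call was not checked under the alternatives. F3 differed by 1.41 (SE 0.236, edgeR adjusted p = 0.00134), with the larger fall in Flp-In. VGLL3 differed by 0.77 (SE 0.153, edgeR adjusted p = 0.00553), with the larger rise in AsiSI. TEAD4 differed by -0.55 (SE 0.117, edgeR adjusted p = 0.00984) and was called in opposite directions in the lines. Its AsiSI fall was 1.24-fold, and that call was lost at a fold threshold of 1.2 (edgeR adjusted p = 0.257). Its Flp-In rise was 1.18-fold (edgeR adjusted p = 0.0258), a call not checked under the alternatives. CCDC80 differed by 0.65 (SE 0.183, edgeR adjusted p = 0.0479). At a fold threshold of 1.2 the calls of TEAD4 and CCDC80 were lost (edgeR adjusted p = 0.101 and 0.163), and TEAD4 was also lost with some, CCDC80 with most, single libraries left out, at adjusted p up to 0.0631 for TEAD4 and 0.31 for CCDC80. In all 5, the line and its 4-OHT treatment cannot be told apart.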

How the results depend on the processing

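Of 544 recomputed member values, 505 kept direction and side of the threshold, 20 lost a call, 3 gained one and 16 changed sign, all 16 in values not called. For the difference between lines the sign changes were TEAD1 at 0.01 under a filter of CPM of at least 1 in at least 4 libraries, and, with a library left out, LATS2 (-0.18 to 0.02), CCN1 (-0.34 to 0.03) and ANKRD1 (-0.09 to 0.33). For AsiSI against Flp-In under siNC, YAP1 had 0.01 under that filter, 0.02 with only the 4 libraries compared and -0.11 to 0.11 with a library left out. Under siMePCE, LATS2 had 0.05 under that filter, 0.00 with the 4 libraries or overlapping rows subtracted, and -0.11 to 0.09 with a library left out. The same filter moved all shared genes by a median of 0.13 in AsiSI and 0.09 in Flp-In on the log2 scale. The 1808 genes called for the difference between lines became 2912 with a replicate block, 787 at a fold threshold of 1.2 and 658 to 1653 with a library left out; the 4 members called under siMePCE became 2 at that threshold. Members called with a library left out numbered 6 to 7 in AsiSI and 5 to 7 in Flp-In. Deviations of same-numbered libraries were positively correlated for every pair of groups, at 0.04 to 0.24. The labels do not say that a number marks a shared batch, so the main fit held no replicate block, and whether numbers mark pairs was not tested. With the block 7 members stayed called in each line, and YAP1 was added between lines under siMePCE (edgeR adjusted p = 0.0425).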
